A study of Mus musculus with 12 samples.

Results

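The genes described here are Cox6a2 and 9 further subunit genes of cytochrome c oxidase, chosen by name as the pairs of genes that encode a tissue form and a ubiquitous form of the same subunit. Cox6a2 leads the set because of its values after Sap30bp knockdown in these data, so its knockdown values are given as a description. The 10 genes are among 54393 in the authors' deposited table, and 8 of them are among the 21541 genes that carry a test there. Cox8b and Cox6b2 carry none. The word isoform is used here for such paralogous genes and not for splice forms.

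Cytochrome c oxidase is the last enzyme of the respiratory chain. It passes electrons from cytochrome c to oxygen and pumps protons across the inner mitochondrial membrane. Its catalytic core is encoded by mitochondrial DNA, and nuclear genes encode the smaller subunits around it. Several of these exist as paired genes, 1 active in most cells and 1 favoured in heart and skeletal muscle (Cox6a2, Cox7a1, Cox8b), in lung and under low oxygen (Cox4i2) or in testis (Cox6b2). Most other cell types chiefly use the ubiquitous forms Cox6a1, Cox7a2, Cox8a, Cox4i1 and Cox6b1.

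The samples were 12 polyA RNA libraries of N2a Flp-In rtTA cells, a mouse neuroblastoma line with an integration site for a doxycycline-inducible cDNA. In the lacking line the FLAG-tagged Sap30bp cDNA had no exon 3, and in the containing line it had exon 3. Each line gave a control group (non-targeting siRNA pool), a knockdown group (1 siRNA against Sap30bp) and a rescue group (the same siRNA and doxycycline, which switches on the siRNA-resistant cDNA), each with 2 biological replicates. Medium was changed at 24 h after transfection and cells were collected at 72 h, with the wells of a condition combined. Sap30bp encodes a nuclear protein known as a transcriptional regulator and as a splicing factor for short introns. No group had the control siRNA with doxycycline, each isoform of the cDNA was studied in 1 line, and nothing in the labels says whether the replicates were separate cultures on separate days. In bulk RNA of this kind, fewer cells with a transcript and less of it per cell cannot be told apart.

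Expression values were RPKM (reads per kilobase of transcript, scaled to the size of the library), 1 value per group from the authors, so they have no SD or n, and read numbers did not accompany them. Sap30bp itself stood at 40.03, 21.71 and 196.5 RPKM in control, knockdown and rescue of the lacking line, and at 33.59, 18.6 and 141.3 RPKM in the containing line. The knockdown of Sap30bp had an FDR of 0.06739 in the lacking line and 0.06839 in the containing line in the authors' deposited table (edgeR), which misses 0.05. Rescue against knockdown gave Sap30bp a log2 fold change of 2.05 and 1.62, called in both lines of the authors' deposited table. These are 4.14-fold and 3.07-fold, less than the ratios of the RPKM values just given. Why the 2 measures differ for Sap30bp was not tested. The sources used here do not say whether these values count the induced cDNA together with the cell's own gene. The neuroblastoma markers summed to between 1082 and 1371 RPKM in the 6 groups. The 10 fibroblast markers summed to between 8.82 and 19.19 RPKM. Of the 43 striated muscle markers, 24 were under 1 RPKM in every group and 8 were listed at 0 throughout, among them Myod1, Myog and Myf5, which define skeletal muscle. The rest reached 1 RPKM or more in some group. Among these were Myh3 (21.9 to 30.48 RPKM), Mef2a (27.08 to 43.87 RPKM) and Tnnt2 (2.01 to 16.24 RPKM).

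The genes of a pair differ along their whole length. The coding sequences of the 5 pairs in GENCODE M21 (build GRCm38) were identical at 57.6% to 69.6% of aligned bases, and no stretch of 31 nt was common to both genes of any pair. Coding exon 2 of the subunit VIa genes is shown because it is the middle exon of Cox6a2, and its inclusion and flanking introns were measured. Cox6a2 exon 2 lies on the minus strand at chr7:128205900-128206036 and Cox6a1 exon 2 on the minus strand at chr5:115348565-115348707, both in GRCm38. Capitals mark bases that differ from the other gene or have no partner in it; of 134 aligned bases 82 were identical and 52 differed.
Cox6a2 exon 2: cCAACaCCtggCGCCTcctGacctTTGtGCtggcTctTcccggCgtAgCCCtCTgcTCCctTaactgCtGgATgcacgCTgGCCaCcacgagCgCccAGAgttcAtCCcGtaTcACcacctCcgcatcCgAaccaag
Cox6a1 exon 2: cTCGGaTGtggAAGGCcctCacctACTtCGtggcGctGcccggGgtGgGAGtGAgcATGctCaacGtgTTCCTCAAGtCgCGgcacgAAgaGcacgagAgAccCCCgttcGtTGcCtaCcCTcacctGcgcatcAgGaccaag
The differences are spread along the whole exon, in 61.2% identity over the aligned bases. Of the other genes in the annotation, none shared a 31 nt stretch with Cox6a2, Cox7a1, Cox4i2, Cox8a, Cox4i1, Cox8b or Cox6b2, and 1 each did with Cox6a1 (23.8% of its stretches), Cox7a2 (4.13%) and Cox6b1 (2.59%).

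Cox6a2, the heart and skeletal muscle form of subunit VIa, was low in both control groups and high in every group that received the Sap30bp siRNA. Its RPKM was 5.35 in control, 44.83 in knockdown and 53.29 in rescue of the lacking line. In the containing line it was 6.32, 80.85 and 71.47 RPKM in the same order. The 2 control values lie below the other 4 values, with no overlap. The number of all genes that separate in this way was not counted, so nothing is read from it. The authors' deposited table gives knockdown against control a log2 fold change of 3.05 in the lacking line (8.29-fold, FDR 2.36e-07) and 3.65 in the containing line (12.6-fold, FDR 1.27e-10). The approximate 95% intervals, worked out from each log2 fold change and its p-value, were 2.106 to 3.996 and 2.68 to 4.62. These are the values Cox6a2 was chosen for, and no support is drawn from them. In the same comparisons, 2.26% of all tested genes were called at an FDR under 0.05 in the lacking line and 3.68% in the containing line, and 1.57% were called in both with 1 sign.

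Cox6a2 stayed high in the rescue groups. Rescue against knockdown had a log2 fold change of 0.18 (approximate 95% interval -0.70 to 1.05, FDR 1) in the lacking line and -0.20 (-1.06 to 0.67, FDR 1) in the containing line, per the authors' deposited table. Only 5 genes (0.0232%) and 1 gene (0.00464%) of those tested were called in these 2 comparisons. The lower bounds of both intervals are closer to 0 than the log2 difference between knockdown and control. Both quantities use the knockdown libraries that Cox6a2 was chosen by, so this comparison is a description. Rescue against control was 3.23 (FDR 3.46e-08) and 3.45 (FDR 1.29e-09) in the authors' deposited table. It shares the control libraries with the knockdown comparison and is likewise a description for Cox6a2.

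Among the 154 genes that were higher on knockdown in both lines, the percent of the log2 knockdown change that rescue removed had a median of 19.6% in the lacking line and 11.7% in the containing line. For Cox6a2 it was -5.79% and 5.44%, where a negative value means that rescue lay further from control than knockdown did. All of these genes, Cox6a2 included, were picked for high values in the knockdown libraries, and rescue against knockdown uses the same libraries, so a part of the percent removed can come from that choice and no support is drawn from it.

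Cox6a1, the ubiquitous form of subunit VIa, was the more abundant of the 2 in every group. Its RPKM was 171.5, 124.8 and 192.7 in control, knockdown and rescue of the lacking line, and 197.2, 165.8 and 256.8 in the containing line. The knockdown log2 fold change was -0.44 (approximate 95% interval -1.69 to 0.80, FDR 0.9496) and -0.32 (-1.57 to 0.92, FDR 0.9727) in the authors' deposited table. Rescue against knockdown was 0.47 and 0.72, also without a call. No fall of Cox6a1 was called while Cox6a2 was high, and the intervals are wide.

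**Figure D1:**
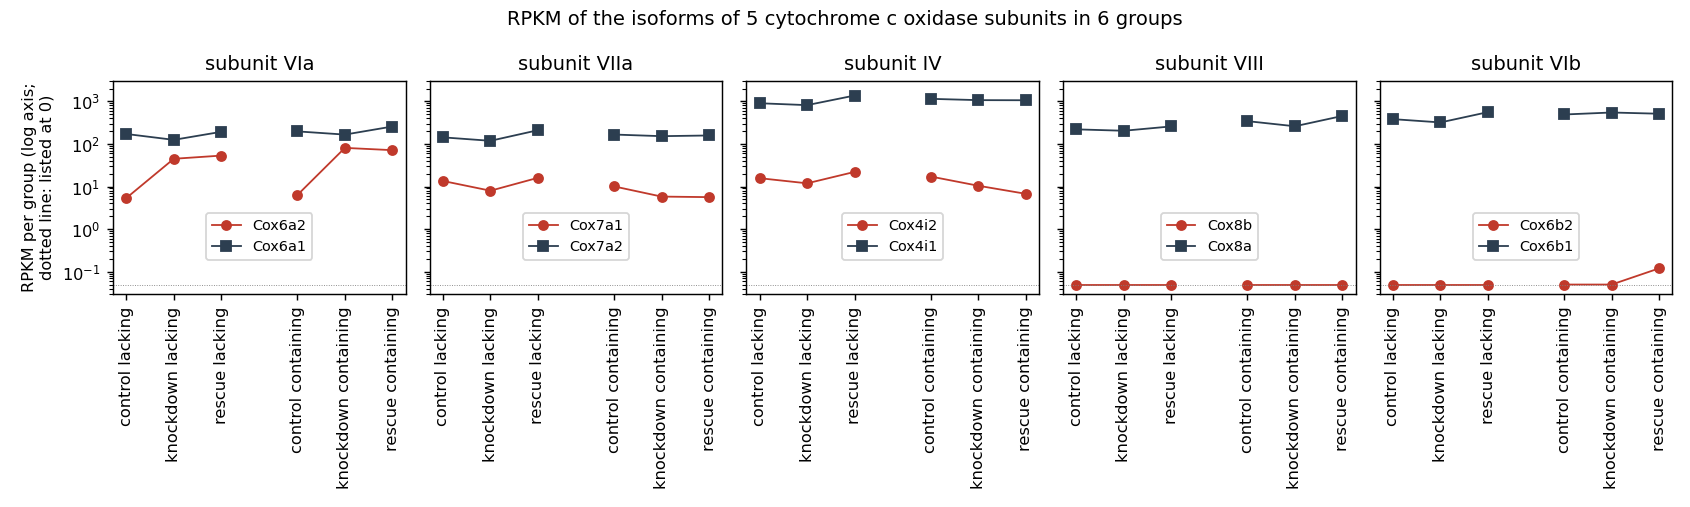
RPKM on a log axis (y) of the tissue form (red circles) and ubiquitous form (dark squares) of 5 subunits in control, knockdown and rescue of each line (x), 1 value per group from the authors with no replicate spread; the dotted line marks genes listed at 0. Cox6a2 is at 5.35 and 6.32 RPKM in the controls and between 44.83 and 80.85 RPKM in the other groups, and each ubiquitous form lies above its partner in every group.

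The share of subunit VIa RPKM that came from Cox6a2 was 3.03% in control, 26.4% in knockdown and 21.7% in rescue of the lacking line, and 3.11%, 32.8% and 21.8% in the containing line. The sum of Cox6a1 and Cox6a2 was 176.9, 169.6 and 246.0 RPKM in the lacking line and 203.5, 246.6 and 328.2 RPKM in the containing line. In control cells Cox6a1 was 32.1 times (lacking) and 31.2 times (containing) as abundant as Cox6a2, and in knockdown cells 2.78 times and 2.05 times. These shares are RPKM ratios of 1 value per group, so no test was made.

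**Figure D2:**
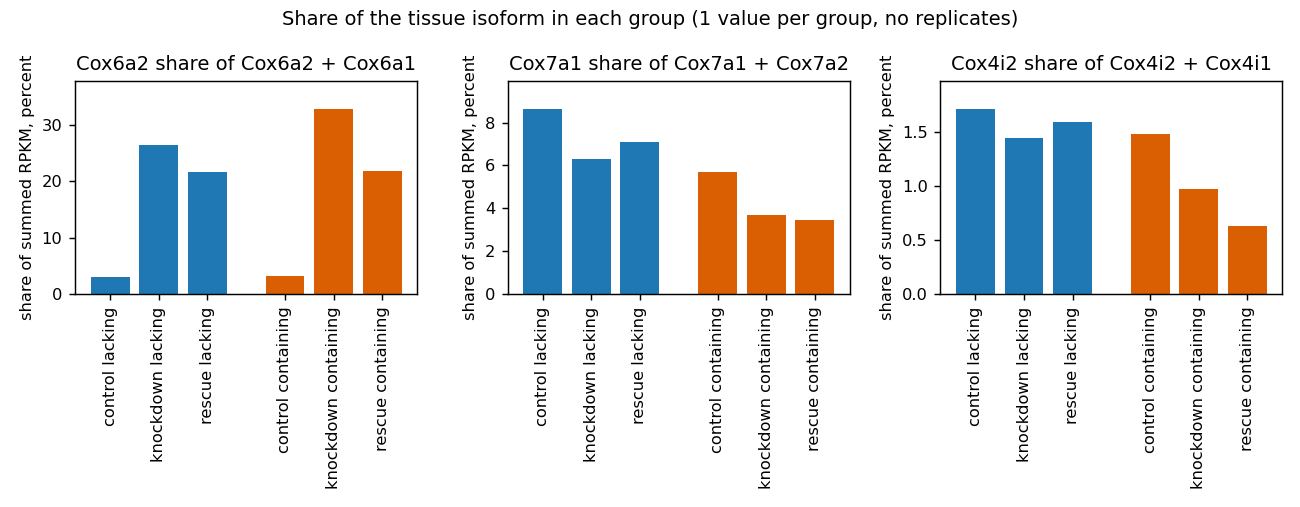
Share of the summed RPKM of a subunit pair that comes from the tissue form (y, percent, a separate scale from 0 in each panel) in each group (x), blue for the lacking line and orange for the containing line, 1 value per bar. The Cox6a2 share is 3.03% and 3.11% in the controls and between 21.7% and 32.8% in the other groups, while the Cox7a1 and Cox4i2 shares stay under 9% and 2%.

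The other muscle form with measurable RNA, Cox7a1, was not high after knockdown. Its RPKM was 13.52, 7.98 and 16.06 in control, knockdown and rescue of the lacking line and 10.08, 5.81 and 5.64 in the containing line. Knockdown lay below control in both lines, with log2 fold changes of -0.90 (approximate 95% interval -1.84 to 0.04, FDR 0.4571) and -0.89 (-1.89 to 0.11, FDR 0.4576) in the authors' deposited table. Neither passed the test. Rescue against knockdown was 1.07 (FDR 0.8258) in the lacking line and -0.04 (FDR 1) in the containing line in the authors' deposited table, with no call for either. Its partner Cox7a2, the ubiquitous subunit VIIa, was 142.9, 118.5 and 210.4 RPKM in the lacking line and 166.3, 152.3 and 158.1 RPKM in the containing line. On knockdown Cox7a2 had log2 fold changes of -0.34 (FDR 0.98) and -0.09 (FDR 1), per the authors' deposited table, and the Cox7a1 share of the pair was between 3.45% and 8.64%. Cox8b, the muscle form of subunit VIII, was listed at 0 in all 6 groups. Cox8a, its ubiquitous counterpart, was 220.1, 204.1 and 258.1 RPKM in the lacking line and 343.1, 260.1 and 454.7 RPKM in the containing line. Its knockdown log2 fold changes were -0.22 (FDR 1) and -0.42 (FDR 0.9594) in the authors' deposited table, with the widest intervals of any member (-1.72 to 1.27 and -1.91 to 1.08).

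Cox4i2, the lung and low-oxygen form of subunit IV, stood at 15.72, 11.9 and 22.1 RPKM in control, knockdown and rescue of the lacking line and at 17.2, 10.44 and 6.75 RPKM in the containing line. The lowest value is the rescue group of the containing line and the highest the rescue group of the lacking line. Knockdown against control was -0.42 (FDR 0.8572) in the lacking line and -0.82 (FDR 0.39) in the containing line in the authors' deposited table, and neither passed. In the containing line rescue lay below control with a log2 fold change of -1.45 (approximate 95% interval -2.31 to -0.58, FDR 0.04831) in the authors' deposited table, a comparison in which 2.27% of tested genes were called. The same contrast in the lacking line was 0.44 (-0.39 to 1.28, FDR 0.8689), among 0.924% called. Cox4i1, the ubiquitous subunit IV and the most abundant member, was 902.9, 815.3 and 1371 RPKM in the lacking line and 1146, 1068 and 1062 RPKM in the containing line, and it passed in no comparison. The Cox4i2 share of subunit IV was between 0.63% and 1.71%.

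Cox6b2, the testis form of subunit VIb, was listed at 0 in 5 groups and at 0.12 RPKM in rescue of the containing line. Cox6b1, which encodes the ubiquitous form at the face where cytochrome c docks, was 382.3, 320.1 and 559.3 RPKM in the lacking line and 491.4, 547.4 and 512.4 RPKM in the containing line. Its knockdown log2 fold change was -0.23 (FDR 0.9627) in the lacking line and 0.14 (FDR 1) in the containing line, per the authors' deposited table. By mean RPKM over the 6 groups the order was Cox4i1 (1061), Cox6b1 (468.8), Cox8a (290.0), Cox6a1 (184.8), Cox7a2 (158.1), Cox6a2 (43.69), Cox4i2 (14.02), Cox7a1 (9.85), Cox6b2 (0.02) and Cox8b (0). Neighbours in this order cannot be separated by a spread between replicates, since the table holds none. The ranges over the 6 groups do not overlap for Cox4i1 with Cox6b1 or for Cox7a2 with Cox6a2, and they overlap for each other pair of neighbours from Cox6b1 down to Cox7a1. Within every single group, though, Cox6b1 lay above Cox8a, Cox8a above Cox6a1 and Cox4i2 above Cox7a1. The order of Cox6a1 with Cox7a2 and of Cox6a2 with Cox4i2 changed between groups.

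Between the lines, no member was called in the controls, where 3.73% of tested genes were, or in the knockdown groups, where 2.9% were. The 2 calls came from the rescue groups, where 3.29% of tested genes were called. Cox4i2 was lower in the containing line with a log2 fold change of -1.82 (approximate 95% interval -2.69 to -0.95, FDR 0.002859) in the authors' deposited table. Cox7a1 was also lower, by -1.59 on the log2 scale (-2.57 to -0.60, FDR 0.0483), per the authors' deposited table. At an FDR under 0.01 the Cox4i2 difference between the rescue groups remains, and the Cox7a1 difference and the Cox4i2 difference from control in the containing line are lost.

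The difference of an effect between the lines was tested with an approximate z test. Benjamini-Hochberg adjustment ran over the genes with an approximate standard error in both lines. Tested genes whose p-value or log2 fold change gave no standard error were left out. No member passed. The Cox6a2 knockdown effect was 0.60 larger on the log2 scale in the containing line (approximate 95% interval -0.76 to 1.95, adjusted p = 0.9999), in a test that called 0.0109% of genes. For Cox4i2 the effect of rescue against control was -1.89 in the containing line relative to the lacking line (-3.09 to -0.68), with an unadjusted p of 0.002103 and an adjusted p of 1, where 0.0221% of genes were called. Rescue against knockdown gave Cox4i2 a difference of -1.49 (-2.70 to -0.28, unadjusted p = 0.01608, adjusted p = 0.9999), where 0.0113% of genes were called. The p-values of this test were unadjusted under 0.05 for 253 of 18292, 260 of 17728 and 385 of 18108 genes in the order knockdown against control, rescue against knockdown and rescue against control. All 3 counts are below the 5% of genes that a uniform distribution of p would give, and a high adjusted p does not show that the lines act alike.

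**Figure D3:**
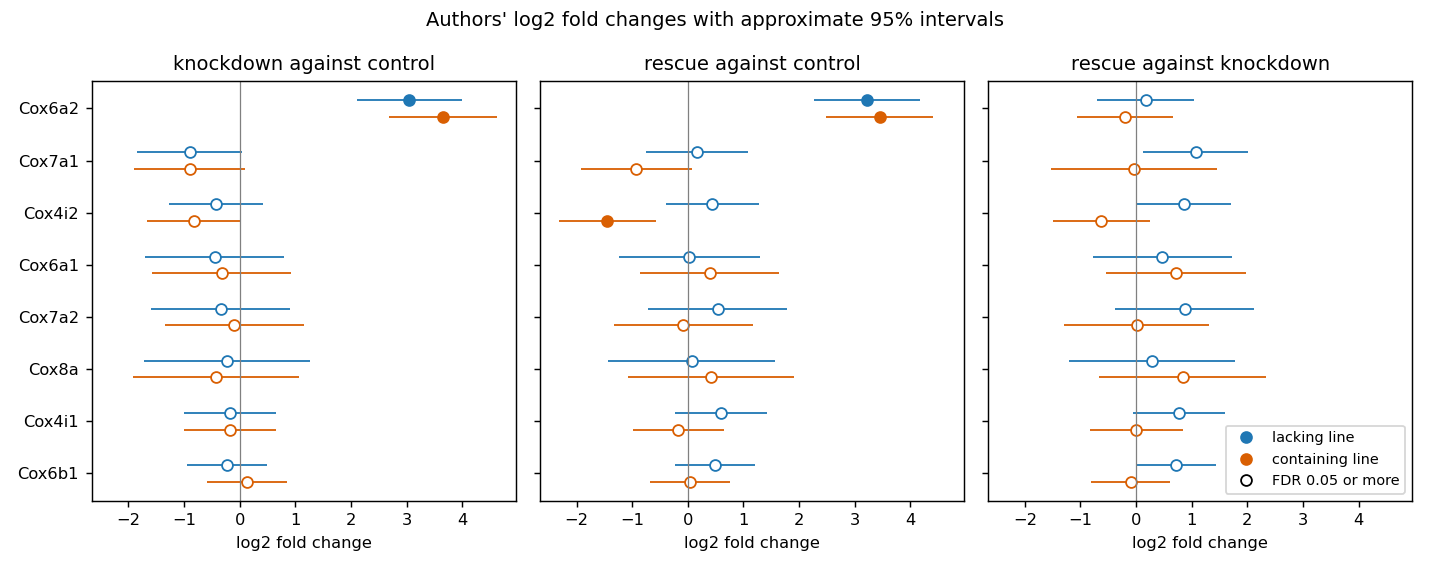
Authors' log2 fold changes (x) of the 8 tested members (y) in 3 comparisons, blue for the lacking line and orange for the containing line, with approximate 95% intervals as bars; filled points have an FDR under 0.05. Cox6a2 is filled and above 2 in both comparisons with control and near 0 for rescue against knockdown, and Cox4i2 is filled below 0 for rescue against control in the containing line.

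All 8 tested members were positive in rescue against knockdown of the lacking line, and none of them passed the test. Of all tested genes 46.3% were positive there. For the ubiquitous members that comparison was positive for 5 of 5, with a median log2 fold change of 0.72 in the authors' deposited table and a range of 0.29 to 0.88. In the containing line 4 of 5 were positive, with a median of 0.01 and a range of -0.10 to 0.84. Of the 12 tested genes among the other subunits, such as Cox5b, Cox6c and the mitochondrially encoded mt-Co3, 11 were positive in the lacking line with a median of 0.66, and 0 were called. Tested genes with a mean of at least 100 RPKM and a longest transcript under 1000 nt, 241 in all, had a median of 0.56 there, 89.2% of them positive. The 858 genes at that level with a transcript of 1000 nt or more had a median of 0.19, 76.9% positive. In the containing line the 2 medians were 0.02 and -0.03. Knockdown against control of the lacking line, which shares the knockdown libraries, was positive for 0 of the 17 tested ubiquitous members and other subunits. There 49.9% of all tested genes and 18.3% of the 241 short abundant genes were positive. The members' longest transcripts are between 360 and 765 nt, and the libraries were selected for a mean insert of 540 nt; the part of transcript length in the members' values was not tested.

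Approximate standard errors of the ubiquitous members' log2 fold changes ran from 0.364 to 0.766 over the 4 comparisons of knockdown against control and rescue against knockdown. For Cox6a2 they ran from 0.442 to 0.495. Short abundant genes as a class had a median of 0.405 in the lacking knockdown comparison, against 0.230 for longer ones.

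The remaining subunits, the assembly factors and the regulators gave no call on knockdown in either line. With 2.26% and 3.68% of all tested genes called, few or no calls go with lists of this size, so nothing particular to them is read from the counts. Of the 13 other subunits 12 were tested and 0 were called, with a median log2 fold change over the lines of -0.18. Cox5b (-0.63), Cox6c (-0.43) and Cox5a (-0.23), nuclear-encoded subunits, were lowest in the authors' deposited table, and Ndufa4l2 (0.48), mt-Co3 (0.10) and Cox7b2 (0.02) highest. Ndufa4l2, mt-Co3 and Cox7b2 were each negative in the lacking line and positive in the containing line. Of 27 assembly factors 0 were called, with a median of -0.10, from Cmc1 (-0.62), Coa4 (-0.61) and Pet100 (-0.40) to Sco1 (0.49), Coa7 (0.36) and Higd2a (0.25). Sco1 delivers copper to the enzyme. Of 12 regulators of mitochondrial genes 0 were called, with a median of 0.03; Pprc1, a PGC-1 related coactivator (0.67, FDR 0.06248 and 0.1955), Tfb2m (0.46) and Tfam (0.33), both needed to transcribe mitochondrial DNA, were highest, and Esrra (-0.22), Gabpb1 (-0.19) and Ppargc1b (-0.17) lowest. Ppargc1b differed in sign between the lines (0.09 lacking, -0.43 containing). The median of all 21541 tested genes was -0.0018.

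Of the 43 striated muscle genes listed, 31 were tested and 2, Pdlim3 and Actc1, were called higher in both lines, with a median log2 fold change of 0.06 over the list. Of all tested genes 154 (0.715%) were called higher in both lines. This list and the other gene lists were chosen with earlier results of these data known, so their counts are descriptions. Pdlim3, which encodes a Z-disc protein, was 21.05, 82.2 and 59.97 RPKM in control, knockdown and rescue of the lacking line and 32.96, 110.5 and 69.16 in the containing line. Its knockdown log2 fold change was 1.98 (FDR 1.43e-11) and 1.74 (FDR 2.61e-09) in the authors' deposited table. Actc1, the cardiac actin, was 0.23, 1.63 and 1.38 RPKM in the lacking line and 0.22, 3.45 and 0.87 RPKM in the containing line, with FDR values of 0.002916 and 6.73e-08. Below the threshold in both lines, Pygm, muscle glycogen phosphorylase, had a mean log2 fold change of 1.48. By that mean Tnni2 (-1.51), Mb (-1.45) and Myh7 (-1.05), all at most 0.57 RPKM, were lowest. The lines differed in sign for Mb (-4.87 lacking, 1.97 containing) and Myh7 (-2.3 lacking, 0.21 containing), so no fall in both lines is read for them. The summed muscle list was between 792.4 and 953.5 RPKM, most of it Slc25a4, an adenine nucleotide carrier with 569.1 to 759.3 RPKM.

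Of 13 tested neuroblastoma markers 1 was called in both lines, set beside the same 0.715% of all tested genes, and 3 were called higher in the containing line, where 3.68% of genes were called in either direction. Phox2a, a neural crest transcription factor, was called in both and was 48.97, 107.7 and 86.6 RPKM in the lacking line and 35.99, 116.6 and 86.25 RPKM in the containing line. Its FDR values on knockdown were 0.01754 and 9.93e-05 in the authors' deposited table. Dbh, dopamine beta-hydroxylase, had a mean log2 fold change of 1.502 and passed in the containing line alone (FDR 6.08e-08, against 0.0813 in the lacking line). Hand2, a transcription factor of sympathetic neurons, also passed in the containing line (FDR 0.004468) and is named after its values were seen. Isl1 (0.89) followed, and Th (-0.67), Gata2 (-0.43) and Snap25 (-0.28) were lowest; none of these 4 passed. None of the 7 tested fibroblast markers was called in both lines. By the mean of the lines Pdgfra (-0.78), Fbn1 (-0.60) and Col1a2 (-0.01) were lowest and Pdgfrb (0.75), Col1a1 (0.36) and Thy1 (0.29) highest. The lines differed in sign for Pdgfrb (1.54 lacking, -0.03 containing), Col1a1 (-0.15, 0.87) and Col1a2 (-0.10, 0.08).

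Of the 3 measured genes on each side of Cox6a2, ordered by start, 4 carry a test and 1 was called on knockdown, in the lacking line, where 2.26% of all tested genes were called (3.68% in the containing line, with none of the 4). Cox6a2 occupies 128205435 to 128206387 on the minus strand of chromosome 7 in GRCm38, in 3 exons. The coding gene Itgad, an integrin chain, spans it on the plus strand and was at most 0.05 RPKM, and the pseudogene Gm17831 was at most 0.03 RPKM. The lncRNA 4931431B13Rik lies 2107 nt beyond the 3′ end of Cox6a2 on the same strand. It was listed at 0 RPKM in both controls, at 0.26 and 0.48 RPKM in knockdown and rescue of the lacking line, and at 0.24 and 0.51 RPKM in those of the containing line. Its knockdown FDR was 0.04654 in the lacking line and 0.09631 in the containing line in the authors' deposited table, so it passed in 1 line. On the other side 9130023H24Rik, Armc5 and Tgfb1i1, 28071, 30955 and 40425 nt away, had knockdown FDR values between 0.628 and 1.

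The 8 genes with group values most like those of Cox6a2 were found by Pearson's r of log2(RPKM + 1) over the 6 groups, among genes with a mean of at least 1 RPKM and a range of at least 1 on that scale. The 6 groups share libraries with the comparisons above, so r is a description. Taf7l, a testis-enriched relative of a general transcription factor subunit, came first with r = 0.9960. It was 0.21, 4.09 and 5.22 RPKM in control, knockdown and rescue of the lacking line and 0.27, 8.03 and 8.41 RPKM in the containing line. Fabp3, the heart-type fatty acid binding protein, had r = 0.9911 with 4.47 to 12.06 RPKM, and the snoRNA host gene Snhg3 r = 0.9911 with 46.76 to 110.5 RPKM. The others were Mfap5 (0.9866), Lhfpl2 (0.9855), the snoRNA Gm22711 (0.9844), the snRNA Gm23322 (0.9780) and Lcn2 (0.9771), a secreted siderophore binder. Of these 8, Taf7l, Lhfpl2 and Lcn2 were called on knockdown in each line by the authors' deposited table, and Mfap5 in the containing line. Fabp3 (FDR 0.3884 and 0.1808), Snhg3 (0.6518 and 0.2229) and Gm22711 (0.4508 and 0.3855) were called in neither line of the authors' deposited table, and Gm23322 carries no test. These genes were picked for the same pattern over the groups, so the count of calls, beside 1.57% of all tested genes called in both lines, is a description.

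**Figure D4:**
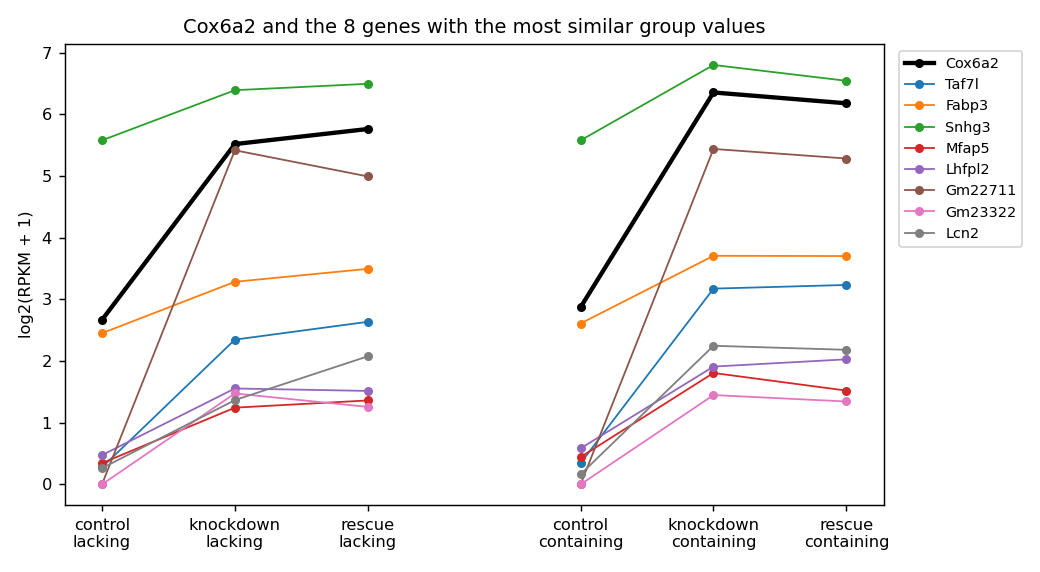
log2(RPKM + 1) (y) of Cox6a2 (thick black) and the 8 genes most like it in control, knockdown and rescue of each line (x), 1 value per group. All 9 genes are lowest in both control groups and stay high in both rescue groups.

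Splicing of the members' own transcripts was measured per library as percent spliced in (how many of a gene's transcripts, in percent, hold an exon, join at a given site or keep an intron), on build mm9. Of 71 entries in member genes, 55 had a value in any library and 43 in all 12. None of them had a mean between 2% and 98%, so none entered the test, in which 1.48% of 28980 events were called for knockdown against control. The 7 exons with all values were included at 99.44% or more in every library. The 12 introns with all values, in 5 genes, were retained at 1.64% or less. Without the limits on the mean 35 member events were tested by limma, 0 were called, and 2 had an unadjusted p under 0.05 for knockdown against control. In that fit 126 of 117021 events (0.108%) were called, so 0 of 35 is near the share over all events. The share of all events with an unadjusted p under 0.05 was not counted, so nothing is read from those 2. The authors' own list of 2175 splicing events holds 0 of member genes.

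The middle exon of Cox6a2, 137 nt at chr7:135349414-135349550 in mm9, was included at 100% in all 12 libraries. The intron of 186 nt upstream of it (chr7:135349551-135349736) read 0% in both replicates of both control groups. In knockdown it read 0.19% and 0.33% in the lacking line and 0.18% and 0.13% in the containing line, and in rescue 0% and 0.28%, then 0% and 0%. All knockdown libraries thus lie above all control libraries. How many of all events separate in this way was not counted, so nothing is read from it. The mean difference was 0.207 percentage points (SE 0.0759), which does not pass over all events (limma without the limits on the mean, adjusted p = 0.403). The intron of 87 nt downstream (chr7:135349327-135349413) read 0% in all 4 control libraries, 0% and 0.33% in knockdown of the lacking line, and 0.37% and 0.17% in knockdown of the containing line. Rescue read 0.31% and 0% in the lacking line and 0% and 0.39% in the containing line, and the groups overlap (mean difference 0.217 points, SE 0.126, adjusted p = 0.703). The control groups also had the lowest Cox6a2 RPKM, and no read numbers accompany the percentages, so the retention that a control value of 0% could miss is unknown.

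**Figure D5:**
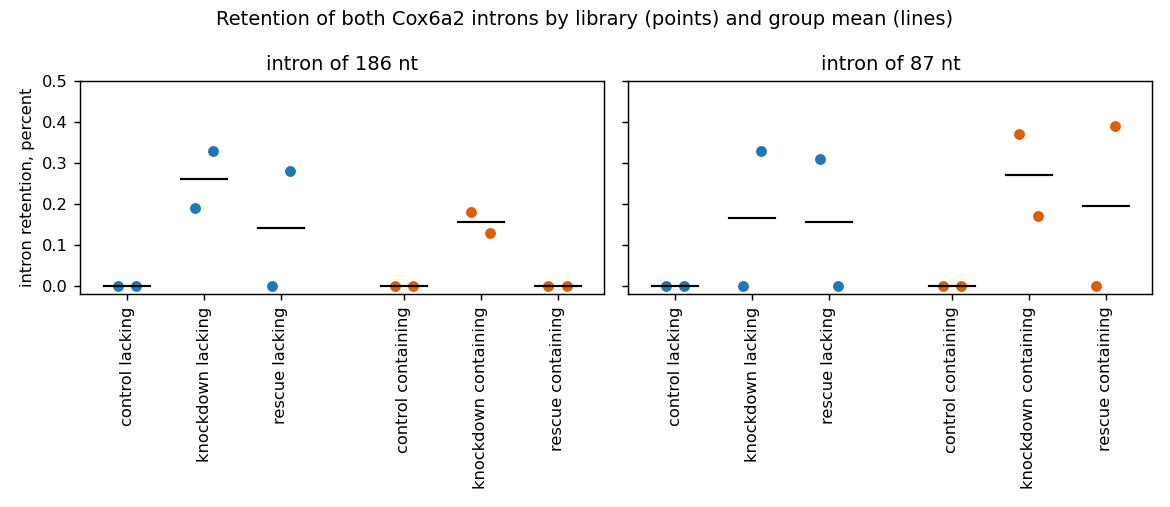
Retention in percent (y) of both Cox6a2 introns in each library (points) and the mean of each group of 2 (lines), blue for the lacking line and orange for the containing line. All values are at 0.39% or less, and the control libraries of both lines are at 0%.

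Among introns that entered the test, which those of Cox6a2 did not, 2 classes of short introns give the scale of retention called on knockdown. Of 1958 introns under 100 nt, 149 (7.61%) were called with higher retention, and of 2106 introns of at least 100 nt and under 200 nt, 49 (2.33%) were. Calls of lower retention are not in these counts. Cox6a2 has 1 intron in each class and both stayed at 0.39% or less in every library. The second member intron with an unadjusted p under 0.05 in the limma fit without the limits on the mean was in Cox4i1 (618 nt). Its group means were 0.135% ± 0.00707 (SD, 2 libraries) in control and 0.320% ± 0.0141 in knockdown of the lacking line. In the containing line they were 0.090% ± 0.0141 and 0.190% ± 0.0707 (limma, adjusted p = 0.499). The highest retention of any member intron in 1 library was 10.34%, in a Cox4i2 intron of 3975 nt with values in 11 libraries.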

How the data were processed

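RNA was measured as 12 libraries, 2 in each of 6 groups named in the labels. The submitters' processing notes name Salmon 0.14.1, edgeR (no version) and the build mm9; all 54393 gene identifiers match GENCODE M21 (GRCm38), which supplied gene positions and sequences. The authors' deposited table gives 1 RPKM value per group, log2 fold changes, and p-values with FDR. Inclusion values are deposited by the authors as percent per library; read numbers are unknown, so intervals and limits that need depth were not computed. Counting settings and strand use were not given in the sources used here.

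A call was an FDR under 0.05. Approximate standard errors were |log2 fold change| over the z of the authors' p. Splicing was fitted with limma 3.58.1 in R 4.3.3 (6 group means, robust trended variance, 15 percentage points and adjusted p under 0.05). Both tests were run on simulated data with larger changes than the members showed and, for splicing, with means near the middle of the scale. The fit without the limits on the mean was not simulated. These simulations therefore do not cover the members' values. Named genes followed 1 rule: all members, list genes called in both lines or with the 3 highest and lowest changes, neighbours of Cox6a2, and the 8 genes most like it. Members and lists were chosen with earlier results of these data known, and the transcript length classes after the values were seen.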

Additional observations from a re-analysis of the deposited data

How the results depend on the processing

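At an FDR of 0.01, the members called in rescue against control of the containing line went from 2 to 1, and those called between the rescue groups of both lines also from 2 to 1; the other 25 of 27 alternatives for the expression calls gave the same count. All 144 recomputed log2 changes of the 8 tested members from RPKM, with 0.1 or 1 added, stayed within 1 approximate standard error of the authors' value. Sap30bp, whose RPKM and fold changes differ, was not part of this check. All 36 isoform shares stayed within 1.5 times. No member was called for a difference between the lines in any of 6 alternatives, or for splicing in any of 136, which include leaving out each library in turn. Most of these splicing alternatives test 0 member events, so they say little about the members. With values in at least 10 of 12 libraries, 2 member events were tested and 0 were called. Of these, 1 had an unadjusted p under 0.05 (limma) for knockdown against control, over both lines and in the containing line.

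Replicates 1 and 2 carry the same numbers in all groups, but the labels name no shared batch. The correlation of replicate deviations had a median of 0.149 over 15 pairs of groups (lowest 0.0417, highest 0.31). The main splicing fit had no block for the replicate number. With the replicate block, 514 splicing events were called against 430, 103 against 6 in the lacking line and 273 against 98 in the containing line, and 0 of member genes. Events called ranged from 170 (without replicate 1 of either control group) to 594 (without knockdown replicate 1 of the lacking line) when each library was left out. Without the limits on the mean 126 events were called, and with a threshold of 10 points 716.

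The expression table holds no values per library, and leave-one-out and paired fits were run on splicing alone. Depth is unknown, and the approximate intervals assume that the authors' p-values follow a normal statistic.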
